A study of Mus musculus with 6 samples.

Results

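The genes described here encode the machinery that carries proteins into mitochondria and the MICOS complex that shapes the inner membrane. They were chosen by a rule on symbols, with earlier results of these data known. The rule takes the protein-coding rows of the deposited table whose names begin with Tomm, Timm, Chchd, Apoo, Micos, Grpel or Mtch, or are Samm50, Mtx1 to Mtx3, Immt, Pam16 or Gfer. The rule took 47 of 14774 genes, lying on 19 chromosomes, and 46 of them had enough counts to be tested among 11939 genes. Chchd6, a MICOS subunit, held at most 7 counts in any library and was not tested. MA-10 is a cell line from a mouse Leydig cell tumour, and STARKO1 is a derivative line grown from 1 sorted cell after CRISPR/Cas9 cutting of Star, the gene of the steroidogenic acute regulatory protein. Both lines were untreated and grown under the usual conditions, both carry the tumour background of MA-10, and the genotypes are wild type and STAR KO. Total RNA of 3 libraries per line was sequenced, so all values below rest on 3 MA-10 and 3 STARKO1 libraries, and the labels do not say whether the libraries of a line came from separate cultures. The p-values therefore measure the spread between these libraries, which may be technical, and a difference between the lines cannot be told apart from a difference between 1 clone and its parent population.

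Most mitochondrial proteins are made in the cytosol and enter through the TOM complex of the outer membrane. From there, the SAM complex builds beta-barrel proteins into the outer membrane, small TIM chaperones escort hydrophobic proteins across the intermembrane space, TIM22 inserts carriers into the inner membrane, and TIM23 with its ATP-driven motor pulls proteins with a presequence into the matrix. Cysteine-rich CHCHD proteins are trapped in the intermembrane space by a disulfide relay, and MICOS holds the cristae junctions, where the inner membrane folds inward. In Leydig cells mitochondria are also where steroid synthesis begins, since the enzyme that cleaves the cholesterol side chain sits on their inner membrane and is itself imported, as is STAR.

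Library totals ran from 14114351 to 19530062 counts. Star, the targeted gene, stood at 60.9, 109 and 61.4 CPM (counts relative to library size, scaled by TMM) in MA-10 replicates 1 to 3 and at 2.06, 2.71 and 2.02 CPM in STARKO1, and thus followed the labels. The 6 Leydig markers examined were all in the table, with 14899 to 26011 counts in sum per library, whereas the 1 Sertoli, 1 germ cell, 2 macrophage and 1 peritubular marker in the table summed to at most 469, 62, 199 and 11 counts. The endothelial markers Pecam1 and Cdh5 summed to 300 to 606 counts in MA-10 and 2103 to 2748 in STARKO1, and their part in the results below was not tested. MA-10 replicate 1 stood apart from the other MA-10 libraries. Over the log2 CPM of genes with a mean log2 CPM over 3, its Pearson correlation across genes, which are not independent replicates, was 0.802 with MA-10 replicate 2 and 0.874 with replicate 3, but 0.949 to 0.955 with the STARKO1 libraries, while MA-10 replicates 2 and 3 correlated at 0.974. Ribosomal protein transcripts made up 4.08, 8.10 and 7.20% of the MA-10 libraries 1 to 3 and 3.80 to 3.96% of the STARKO1 libraries, and 7SL RNA made up 1.81, 14.4 and 6.63% against 1.82 to 2.37%. The counts of members called, and the log2 fold changes of several members, are therefore also given without MA-10 replicate 1 and with it as the only MA-10 library.

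A single member, Chchd10, differed between the lines at an adjusted p under 0.05 (edgeR quasi-likelihood test, Benjamini-Hochberg over all genes tested). It was lower in STARKO1, and no member was higher, against 4.74% of all tested genes lower and 4.30% higher (9.04% in either direction). At an unadjusted p under 0.05, 19 of 46 members were lower and 4 higher, against 22.7% and 15% of all tested genes. The libraries of the lines did not overlap for 16 members (42.5% of all tested genes), with STARKO1 below MA-10 for 9 (21% of all tested genes) and above it for 7 (21.5%). The log2 fold changes, given here and below as STARKO1 minus MA-10, had a median of -0.57 over the members and of -0.05 over all tested genes, and ran from -2.37 to 0.73. Scaling by library size alone added 0.43 to the median of all genes. Relative to the median of all genes, that of the members lay 0.52 lower on the log2 scale with TMM and 0.38 lower with library size alone. With offsets for the trend with transcript length, the medians were -0.25 over the members and -0.01 over all tested genes. DESeq2 called 13 members lower and 1, Immt, higher (14.6% and 9.00% of all genes it tested).

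The members as a group held a near constant share of the counts in STARKO1, 0.328% in each library, and 0.30, 0.402 and 0.367% in MA-10 replicates 1 to 3. Replicate 1 was thus the only MA-10 library below STARKO1 in this share, and replicates 2 and 3 were both above it. Gene by gene the order varied. MA-10 replicate 1 lay below all STARKO1 libraries for 27 members, within their range for 8 and above it for 11. Over all 11939 tested genes these counts were 4851, 2255 and 4833. For 39 of 46 members MA-10 replicate 1 lay nearer to the STARKO1 mean than to the mean of MA-10 replicates 2 and 3, a share of 84.8% against 69.8% of all tested genes. The ratio of the highest to the lowest library within MA-10 had a median of 2.23 and exceeded 2 for 26 members (56.5%, against 40.7% of all tested genes). Within STARKO1 its median was 1.09 and its highest value 1.34. Both shares differed with transcript length over all tested genes. Of those at or under the median transcript length of the members, 79.1% had replicate 1 nearer to STARKO1 and 61.9% had an MA-10 ratio over 2. Of the longer ones, 66.8% and 34.1% did.

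**Figure D1:**
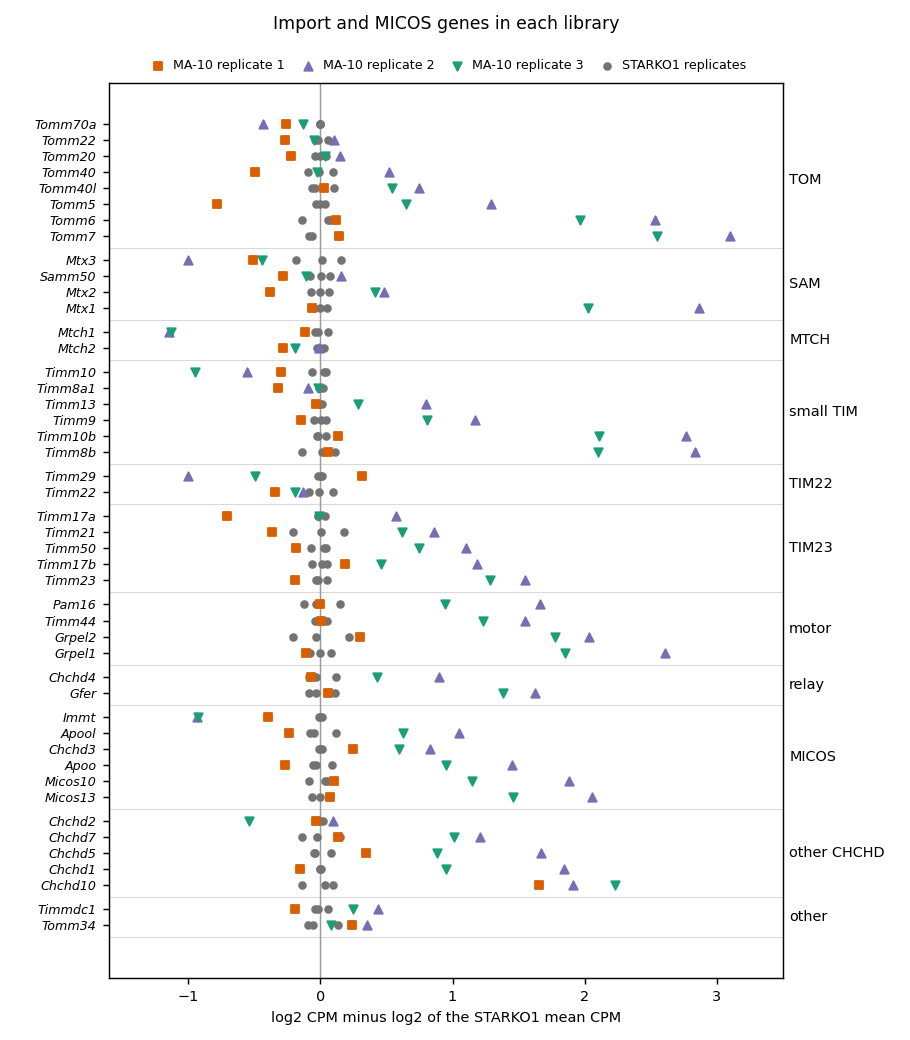
Each row is 1 of the 46 tested members, grouped by role, and each point is 1 library, plotted as log2 CPM minus log2 of the STARKO1 mean CPM of that gene. The STARKO1 circles sit close to 0, MA-10 replicate 1 (squares) sits near them for most genes, MA-10 replicates 2 and 3 (triangles) spread up to about 3 log2 units above them, and Chchd10 is the member with all 3 MA-10 libraries far to the right.

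Without MA-10 replicate 1, edgeR called 29 members lower and 6 higher in STARKO1 (31.7% and 34.0% of all genes tested in that fit), and the median log2 fold change of the members was -0.71. The 6 higher members were Immt, Mtch1, Mtx3, Timm10, Timm29 and Tomm70a. With MA-10 replicate 1 as the only MA-10 library, whose spread was taken to be that of STARKO1, 12 members were higher and 3 lower (19.9% and 20.6% of all genes tested) and the median was 0.11. The 3 lower members were then Chchd10, Chchd3 and Timm29. Chchd10 and Chchd3 were called lower, and Immt and Tomm70a higher, in both of these fits, while Timm29, Mtx2 and Tomm5 were called in both with opposite signs. The plot of differences by MA-10 library sets these contrasts side by side. These lists were read from the fits after the values were seen, and both fits share the 3 STARKO1 libraries.

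**Figure D2:**
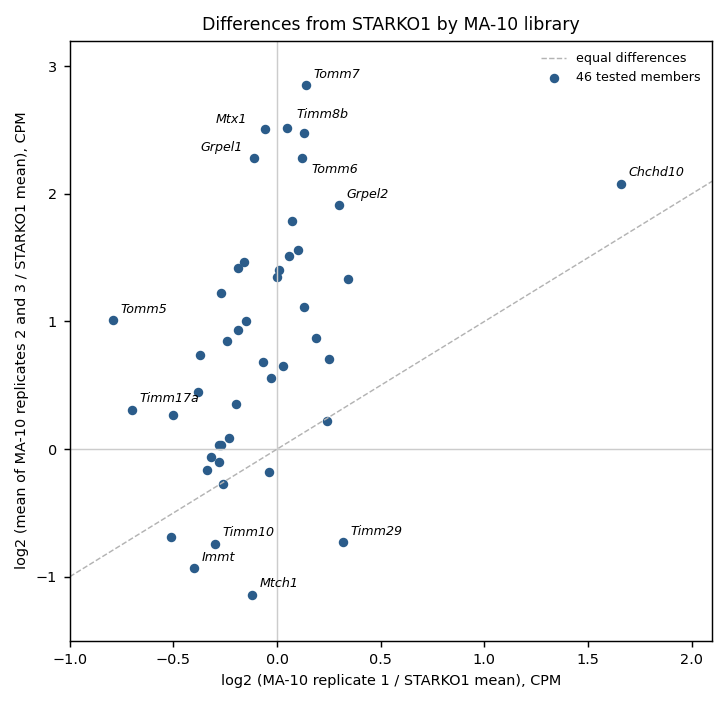
Each point is 1 of the 46 tested members, with the log2 ratio of MA-10 replicate 1 to the STARKO1 mean on the horizontal axis and that of the mean of MA-10 replicates 2 and 3 on the vertical axis (CPM). Points on the dashed line would be equally far from STARKO1 in both, most points lie near 0 on the horizontal axis and run up to 2.85 on the vertical axis, and Chchd10 lies far from 0 on both.

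Chchd10, a small CHCHD protein of the intermembrane space whose human counterpart is known for mutations in mitochondrial myopathy and motor neuron disease, was the only member past the threshold. It stood at 53.8, 64.4 and 79.9 CPM in MA-10 and at 15.5, 18.2 and 17.5 CPM in STARKO1, from 742 to 940 counts and 308 to 361 counts per library. All 3 MA-10 libraries lay far above all 3 STARKO1 libraries, and MA-10 replicate 1 was on the side of its own line. The means were 66.0 ± 13.1 and 17.1 ± 1.37 CPM (SD, n = 3), a 3.87-fold higher level in MA-10, with a log2 fold change of -1.95 (SE 0.197, adjusted p = 0.00456, edgeR quasi-likelihood test), and the gene ranked 65 by p among all genes tested. Across 15 other settings the log2 fold change ran from -1.99 to -1.39 and the adjusted p passed the threshold in 13 of them. It missed it without STARKO1 replicate 1 (-1.80, adjusted p = 0.0532, edgeR) and with offsets for transcript length together with the replicate number as a block (-1.39, adjusted p = 0.0538, edgeR). With MA-10 replicate 1 as the only MA-10 library it was -1.66, and without that library -1.99.

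Chchd10 lies at chr10:75933130-75937747 on the forward strand (mm10), and 3367 bases of it overlap Mmp11, a matrix metalloproteinase gene on the opposite strand. The library kit keeps strand, but whether strand was used in counting is not given in the sources used here, so reads of the pair may not be told apart. Mmp11 stood at 23.9, 15.1 and 11.6 CPM in MA-10 and at 10.3, 13.9 and 10.4 CPM in STARKO1, so its libraries overlapped and its difference did not pass the test (log2 fold change -0.55, adjusted p = 0.206, edgeR). The value for Mmp11 was -0.12 without MA-10 replicate 1 and -1.06 with that library alone. The part of Mmp11 reads in the Chchd10 difference was not tested. The promoter of Chchd10 is shown because this is the called member, as the 150 bases before its start in RefSeq (GRCm38.p6, chr10:75932980-75933129, forward strand). It holds no match to CCGGAAG, the core letters of sites bound by GABP (NRF2), a factor known for driving nuclear genes of mitochondria, on either strand.
Chchd10: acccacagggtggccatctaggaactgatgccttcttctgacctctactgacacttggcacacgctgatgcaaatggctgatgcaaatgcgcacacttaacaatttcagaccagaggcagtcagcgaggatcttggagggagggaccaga

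The partner of Chchd10 by sequence, Chchd2, encodes a protein found with CHCHD10 in the same complexes. Chchd2 stood at 207, 227 and 146 CPM in MA-10 and at 215, 211 and 210 CPM in STARKO1, so MA-10 replicate 3 was low, the other MA-10 libraries lay around STARKO1, and the log2 fold change was 0.13 (adjusted p = 0.65, edgeR). Per kilobase of transcript, Chchd2 had the highest level of all members in STARKO1, 232 CPM per kb, against 18.2 CPM per kb for Chchd10. In MA-10 the same levels were 211 and 70.3 CPM per kb. The log2 ratio of Chchd2 to Chchd10 counts was 1.94, 1.82 and 0.87 in MA-10 and 3.79, 3.53 and 3.58 in STARKO1, a difference of 2.09. The ratio was thus higher in every STARKO1 library than in every MA-10 library. Reads of Chchd2 were divided with another gene or transcript in the deposited values, which are not whole numbers for it, and the gene lies within the same-strand span of Phkg1.

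The 3 other CHCHD proteins outside MICOS and the relay, Chchd1 (a subunit of the mitochondrial ribosome), Chchd5 and Chchd7 (a pair of twin-CX9C proteins), were lower in STARKO1 on average, with log2 fold changes of -1.10, -1.06 and -0.84 and adjusted p of 0.128, 0.0773 and 0.101 (edgeR). None of the 3 passed the test, and MA-10 replicate 1 stood at 42.1 CPM for Chchd1, below the STARKO1 mean of 47.0 CPM, while replicates 2 and 3 stood at 169 and 90.7 CPM.

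The TOM complex, the entry gate, was not of one piece. None of its 8 tested genes passed the test, and their median log2 fold change was -0.26. At an unadjusted p under 0.05, 2 were lower and none higher (22.7% and 15% of all tested genes). The receptors Tomm20, Tomm22 and Tomm70a, which bind incoming proteins, differed little, with log2 fold changes of 0.01, 0.06 and 0.27 (adjusted p 0.98, 0.78 and 0.249, edgeR). Tomm70a, the receptor for carriers, did keep its groups apart, at 154, 137 and 169 CPM in MA-10 and 185 CPM in each STARKO1 library. Tomm40, the channel itself, stood at 63.8, 129 and 88.3 CPM in MA-10 and at 84.4, 89.4 and 96.4 CPM in STARKO1, so the STARKO1 libraries lay inside the range of MA-10 (log2 fold change -0.06, adjusted p = 0.887, edgeR). Its paralog Tomm40l stood at 16.4, 27.1 and 23.5 CPM against 15.7, 15.4 and 17.3 CPM, with MA-10 replicate 1 among the STARKO1 libraries (-0.47, adjusted p = 0.159, edgeR).

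Tomm5, Tomm6 and Tomm7 are the small subunits, and none of them passed the test. Tomm6, which helps hold the complex together, stood at 73.5, 392 and 264 CPM in MA-10 and at 61.4, 71.1 and 70.5 CPM in STARKO1. MA-10 replicates 2 and 3 were several-fold above all other libraries, and replicate 1 lay only just above STARKO1. The log2 fold change was -1.84 (SE 0.546, adjusted p = 0.0701, edgeR), and it was -2.18 without MA-10 replicate 1 and -0.12 with that library alone. Tomm7, another small subunit and the member with the largest difference, was singled out after its values were seen. It stood at 72.2, 563 and 384 CPM in MA-10 and at 61.6, 72.4 and 62.6 CPM in STARKO1, so MA-10 replicate 1 lay within STARKO1 (-2.37, SE 0.663, adjusted p = 0.064, edgeR). It was -2.76 without MA-10 replicate 1 and -0.14 with that library alone. Tomm5, the third small subunit, was lowest of all in MA-10 replicate 1, at 13.1 CPM. It stood at 55.2 and 35.4 CPM in the other MA-10 libraries and at 22.1 to 23.1 CPM in STARKO1. Its log2 fold change was -0.91 without MA-10 replicate 1 and 0.79 with that library alone. The transcripts of the 3 genes are short, and with offsets for transcript length the log2 fold changes were -1.03 for Tomm6, -1.74 for Tomm7 and 0.18 for Tomm5, against -1.84, -2.37 and -0.61 without them. The CPM ratio of Tomm7 to the receptor Tomm22, a description chosen after the values were seen, was 1.61, 9.70 and 7.31 in MA-10 and 1.09, 1.36 and 1.19 in STARKO1. Tomm6 reads were divided in the deposited values, and its span is shared on the same strand with the gene model Gm21981.

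By mean level per kilobase of transcript, the TOM genes stood in nearly the same order in both lines. Only Tomm20 and Tomm40, whose means were close, changed places. The lead of Tomm6 and Tomm7 was larger in MA-10. In STARKO1 Tomm6 led at 90.4 CPM per kb, followed by Tomm7 at 58.3, Tomm20 at 55.1 and Tomm40 at 54.7, of which the libraries of the last 3 overlapped, and Tomm40l was lowest at 3.43. In MA-10 the means of Tomm6 and Tomm7 were 325 and 302 CPM per kb, those of Tomm20 and Tomm40 were 54.9 and 56.9. The larger lead of Tomm6 and Tomm7 in MA-10 came from replicates 2 and 3, as the plot of levels per transcript length shows.

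**Figure D3:**
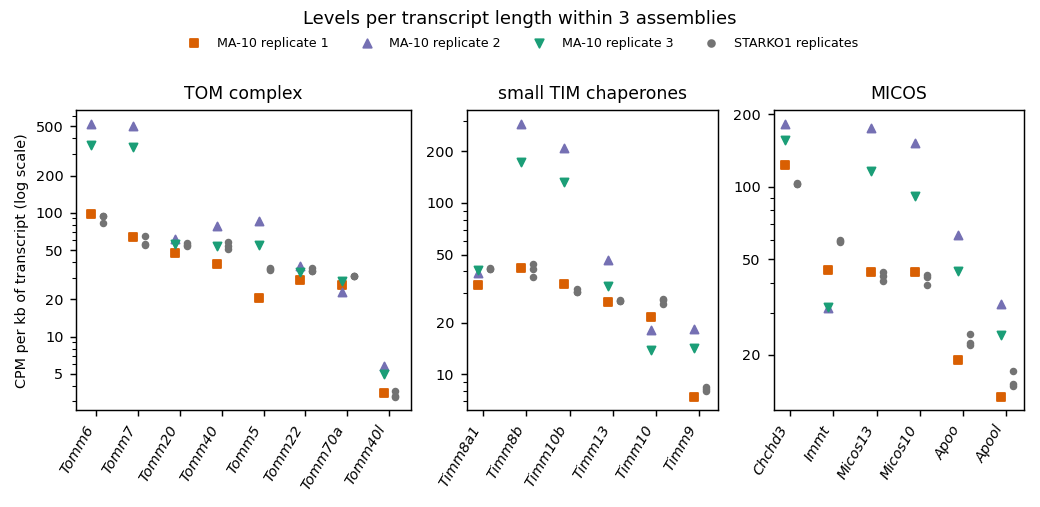
Each point is the level of 1 gene in 1 library in CPM per kilobase of transcript on a log axis, for the tested genes of the TOM complex, the small TIM chaperones and MICOS, ordered by their STARKO1 mean. The STARKO1 circles of a gene nearly coincide, and MA-10 replicates 2 and 3 (triangles) lie well above them for Tomm6, Tomm7, Timm8b, Timm10b, Micos10 and Micos13, near or among them for Tomm20 and Tomm22, and below them for Immt and Timm10.

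In the SAM complex, Samm50, the beta-barrel that inserts other beta-barrels, was at 64.3 to 87.1 CPM in MA-10 and 73.9 to 82.1 CPM in STARKO1 (log2 fold change 0.07, adjusted p = 0.788, edgeR), while its partners Mtx1 and Mtx3, the metaxins, lay on opposite sides. Mtx1 stood at 21.2, 162 and 90.4 CPM in MA-10 and at 23.0, 22.1 and 21.4 CPM in STARKO1. MA-10 replicate 1 was the lowest library of all, by a small margin, and replicates 2 and 3 the highest (log2 fold change -2.04, SE 0.64, adjusted p = 0.077, edgeR). It was -2.41 without MA-10 replicate 1 and 0.06 with that library alone. Mtx3 stood at 5.38, 3.82 and 5.64 CPM in MA-10 and at 8.52, 6.72 and 7.70 CPM in STARKO1, with every STARKO1 library above every MA-10 library (0.63, SE 0.223, adjusted p = 0.0957, edgeR). Mtx2 had a log2 fold change of -0.22 (adjusted p = 0.524, edgeR). Per kilobase Mtx3 was the lowest tested member in both lines, at 0.788 CPM per kb in MA-10 and 1.22 in STARKO1. Mtx1 overlaps Thbs3, the thrombospondin 3 gene on the opposite strand, over 11658 bases. Thbs3 held only 20 to 126 counts per library and was higher in STARKO1 (log2 fold change 1.16, adjusted p = 0.06, edgeR, not past the threshold), so its difference had the opposite sign to that of Mtx1.

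Mtch1 and Mtch2 encode outer-membrane proteins of the carrier family, and MTCH2 is known as an insertase for tail-anchored proteins. Mtch1 stood at 69.1, 33.8 and 34.3 CPM in MA-10 and at 73.0, 74.2 and 77.9 CPM in STARKO1, so that MA-10 replicates 2 and 3 had less than any other library and replicate 1 lay close under STARKO1 (log2 fold change 0.71, SE 0.30, adjusted p = 0.133, edgeR, and 1.23 without or 0.12 with only MA-10 replicate 1). Mtch2 stood at 98.8, 119 and 105 CPM against 120, 118 and 122 CPM, a smaller difference with MA-10 replicate 2 inside the range of STARKO1 (0.15, adjusted p = 0.464, edgeR). MA-10 replicates 2 and 3 were thus the low libraries for Mtch1, and the high ones for Tomm7 and Mtx1.

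The small TIM chaperones form hexamers in the intermembrane space, Timm9 with Timm10 and Timm8 proteins with Timm13, while Timm10b joins the TIM22 complex. None of the 6 tested genes passed the test. At an unadjusted p under 0.05, 2 were lower and 1 higher (22.7% and 15% of all tested genes). Timm8b stood at 21.8, 150 and 90.1 CPM in MA-10 and at 19.1, 21.2 and 22.7 CPM in STARKO1, with MA-10 replicate 1 inside the range of STARKO1 (log2 fold change -2.06, SE 0.616, adjusted p = 0.0718, edgeR). Without MA-10 replicate 1 the value for Timm8b was -2.42, with that library alone -0.06, and with offsets for transcript length -1.20. Its paralog Timm8a1, the mouse counterpart of the gene of deafness-dystonia syndrome, stood at 47.1, 55.2 and 57.9 CPM against 58.3, 58.6 and 59.5 CPM. Every MA-10 library lay below every STARKO1 library for Timm8a1, by a narrow margin (0.14, adjusted p = 0.507, edgeR). Timm10b had a log2 fold change of -2.02 (adjusted p = 0.0674, edgeR, and -2.38 without or -0.13 with only MA-10 replicate 1), and Timm10, described after its values were seen, one of 0.57 (adjusted p = 0.0922, edgeR). Timm10b reads were divided in the deposited values, and 3086 bases of its span are shared on the same strand with the gene model Gm45799. Timm10 stood at 15, 12.6 and 9.60 CPM in MA-10 and at 18.8, 17.7 and 19.0 CPM in STARKO1, which put all 3 MA-10 libraries below STARKO1. The CPM ratio of Timm8b to Timm10, also chosen after the values were seen, was 1.45, 12.0 and 9.39 in MA-10 and 1.01, 1.20 and 1.20 in STARKO1, so that replicate 1 came closest to STARKO1.

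The promoters of Timm8b and Timm10 are shown because the fitted values of these 2 chaperones, neither past the test, had opposite signs and both carry the CCGGAAG letters, in capitals, close before the RefSeq start. They are the 150 bases at chr9:50603751-50603900 and chr2:84826871-84827020 (GRCm38.p6, forward strand). The match begins 12 bases before the start in Timm8b and, as CTTCCGG on the reverse strand, 16 bases before it in Timm10. The start deposited for Timm10 lies 24 bases before its RefSeq start, so the match in Timm10 lies within the gene as counted.
Timm8b: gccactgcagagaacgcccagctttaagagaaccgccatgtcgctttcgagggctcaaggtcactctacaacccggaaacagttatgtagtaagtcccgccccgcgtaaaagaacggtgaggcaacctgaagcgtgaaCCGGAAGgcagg
Timm10: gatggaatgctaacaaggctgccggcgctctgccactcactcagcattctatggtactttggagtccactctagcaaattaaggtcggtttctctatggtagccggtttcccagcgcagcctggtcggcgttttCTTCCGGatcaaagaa

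TIM22, the inner-membrane channel for carriers, was represented by Timm22 and Timm29. Timm22, the channel protein, stood at 21.9, 25.4 and 24.3 CPM in MA-10 and at 27.5, 26.2 and 29.6 CPM in STARKO1. All STARKO1 libraries were above all MA-10 libraries, at a small difference (log2 fold change 0.22, SE 0.149, adjusted p = 0.305, edgeR). Timm29, which joins TIM22 to TOM, was the one member for which MA-10 replicate 1 was above and replicates 2 and 3 below STARKO1, at 22.3, 8.93 and 12.7 CPM against 17.7 to 18.1 CPM.

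In the TIM23 complex, which threads presequence proteins across the inner membrane, all 5 log2 fold changes were negative, from -1.05 to -0.04, and none passed the test. At an unadjusted p under 0.05 Timm23 and Timm17b were lower (22.7% of all tested genes). Timm23, the channel subunit with the highest level per kilobase of the complex, stood at 61.0, 204 and 169 CPM in MA-10 and at 68.7, 68.1 and 71.9 CPM in STARKO1. Replicate 1 was below STARKO1 and the other MA-10 libraries well above it (-1.05, SE 0.412, adjusted p = 0.115, edgeR, and -1.33 without or 0.19 with only MA-10 replicate 1). Timm17a and Timm17b are alternative partners of Timm23, and human TIMM17A is known as the one degraded under stress. Timm17a stood at 26.0, 62.9 and 42.1 CPM against 41.9, 41.8 and 43.4 CPM, so the MA-10 libraries spread around STARKO1 (-0.04, adjusted p = 0.927, edgeR). Timm17b stood at 30.6, 61.1 and 37.1 CPM against 27.9, 27.1 and 25.8 CPM, with all MA-10 libraries above all STARKO1 libraries (-0.67, adjusted p = 0.12, edgeR). Timm50, the receptor, and Timm21, which links TIM23 to TOM, had log2 fold changes of -0.65 and -0.46.

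All 4 genes of the import motor had negative log2 fold changes, from -1.83 to -1.02 with a median of -1.30, and all 4 were lower at an unadjusted p under 0.05 (22.7% of all tested genes), while none passed the adjusted threshold. Without MA-10 replicate 1 all 4 were called lower (31.7% of all genes tested in that fit), and with that library alone none was called (20.6% of all genes lower and 19.9% higher) and the median was -0.01. Timm44, which tethers the motor to TIM23, stood at 102, 297 and 238 CPM in MA-10 and at 101, 105 and 98.4 CPM in STARKO1 (-1.07, SE 0.371, adjusted p = 0.0922, edgeR). Grpel1, the nucleotide exchange factor of mitochondrial HSP70, stood at 105, 692 and 409 CPM against 107, 113 and 120 CPM (-1.83, SE 0.602, adjusted p = 0.0835, edgeR). For both, MA-10 replicates 2 and 3 were the high libraries, and replicate 1 was level with STARKO1. For Grpel1 the value was -2.19 without MA-10 replicate 1 and 0.11 with it alone. Grpel2, its paralog, stood at 22.2, 73.8 and 61.9 CPM against 17.6, 15.6 and 20.9 CPM (-1.54, SE 0.427, adjusted p = 0.0628, edgeR). Here MA-10 replicate 1 was just above the highest STARKO1 library. Pam16, which regulates the J-protein of the motor, had a log2 fold change of -1.02 (adjusted p = 0.113, edgeR, and -1.25 without or 0.0 with only MA-10 replicate 1). Reads of Pam16 were divided in the deposited values, and 8461 bases of it overlap Glis2 on the opposite strand. Glis2 had a log2 fold change of 0.62 (adjusted p = 0.304, edgeR), and its part in the Pam16 counts was not tested.

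The disulfide relay consists of Chchd4, the oxidoreductase known as MIA40, and Gfer, the sulfhydryl oxidase that reoxidises it. Gfer stood at 115, 341 and 287 CPM in MA-10 and at 104, 108 and 119 CPM in STARKO1, with replicate 1 within the range of STARKO1 (log2 fold change -1.17, SE 0.386, adjusted p = 0.0843, edgeR). Chchd4 had a log2 fold change of -0.47 (adjusted p = 0.21, edgeR). Both were called lower without MA-10 replicate 1 (31.7% of all genes tested), where Gfer was at -1.42, and neither with that library alone, where Gfer was at -0.06. The 13 twin-CX9C proteins listed as clients of the relay beyond the symbol rule, such as Cox17 and Ndufs5, showed a median of -1.17, with none past the test, 9 lower at an unadjusted p under 0.05 (22.7% of all tested genes), and MA-10 replicate 1 nearer to STARKO1 for all 13 (69.8% of all tested genes, and 79.1% of those at or under the median transcript length of the members).

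MICOS combined the largest higher value among the members with several lower ones. Of its 6 tested genes none passed the test. At an unadjusted p under 0.05 Immt was higher (15% of all tested genes). Chchd3, Micos10 and Micos13 were lower at that threshold (22.7% of all tested genes). Immt encodes mitofilin (MIC60), the core subunit. Immt was described after its values were seen, at 124, 85.5 and 86.1 CPM in MA-10 and 163, 162 and 165 CPM in STARKO1. All 3 MA-10 libraries lay below all STARKO1 libraries, replicate 1 the least so (0.73, SE 0.197, adjusted p = 0.061, edgeR). Immt passed the threshold with DESeq2 (adjusted p = 0.00815) and, narrowly, with offsets for transcript length (adjusted p = 0.0483, edgeR), and also without MA-10 replicate 1 (log2 fold change 1.02) and with that library alone (0.40). It did not pass with the replicate number as a block (adjusted p = 0.12, edgeR) or with library size alone (adjusted p = 0.121, edgeR). Its reads were divided in the deposited values.

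Chchd3 (MIC19), which binds Immt and has the highest level per kilobase of the complex in both lines, stood at 190, 284 and 242 CPM in MA-10 and at 161, 159 and 160 CPM in STARKO1. The 3 STARKO1 libraries agreed closely and all MA-10 libraries lay above them, though the adjusted p missed the threshold (-0.57, SE 0.197, adjusted p = 0.0897, edgeR). Micos10 (MIC10), the subunit that bends the membrane, and Micos13 (MIC13), which links the subcomplexes, were described after their values were seen. Micos10 stood at 113, 388 and 234 CPM against 108, 109 and 99.2 CPM (-1.22, adjusted p = 0.0893, edgeR). Micos13 stood at 33.6, 133 and 87.8 CPM against 32.0, 30.6 and 33.5 CPM (-1.40, adjusted p = 0.0806, edgeR). For both, MA-10 replicate 1 was just above the highest STARKO1 library and replicates 2 and 3 far above it. Without MA-10 replicate 1 the values were -1.47 for Micos10 and -1.69 for Micos13, and with that library alone -0.10 and -0.07. The CPM ratio of Micos10 to Immt, chosen after the values were seen, was 0.913, 4.53 and 2.72 in MA-10 and 0.660, 0.676 and 0.602 in STARKO1, so it was higher in every MA-10 library.

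The lipid-binding MICOS subunits Apoo (MIC26) and Apool (MIC27) are both on the X chromosome. Apoo stood at 15, 49.3 and 34.9 CPM in MA-10 and at 17.6, 17.3 and 19.2 CPM in STARKO1 (log2 fold change -0.87, adjusted p = 0.156, edgeR). Apool stood at 18.2, 44.4 and 33.0 CPM against 23.3, 20.7 and 20.3 CPM (-0.57, adjusted p = 0.221, edgeR). In both genes MA-10 replicate 1 was the lowest of all 6 libraries and replicates 2 and 3 the highest. Without MA-10 replicate 1 the values were -1.13 for Apoo and -0.76 for Apool, and with that library alone 0.27 and 0.25. Chchd6 (MIC25), the untested subunit, held 3, 1 and 1 counts in MA-10 and 7, 7 and 3 in STARKO1.

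The promoters of Micos10 and Immt are shown because the fitted values of these subunits of the same complex, neither past the main test, had opposite signs, again with CCGGAAG in capitals. They are the 150 bases before the RefSeq start at chr4:139131114-139131263 (reverse strand, so the run is read from the higher coordinate) and chr6:71831170-71831319 (forward strand, GRCm38.p6). The match begins 24 bases before the start in Micos10 and 119 bases before it in Immt.
Micos10: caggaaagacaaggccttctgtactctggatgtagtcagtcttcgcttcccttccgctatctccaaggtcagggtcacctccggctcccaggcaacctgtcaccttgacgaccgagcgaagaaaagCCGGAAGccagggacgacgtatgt
Immt: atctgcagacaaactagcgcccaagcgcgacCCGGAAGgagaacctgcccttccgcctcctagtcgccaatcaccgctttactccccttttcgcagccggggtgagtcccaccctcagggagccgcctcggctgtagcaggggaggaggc

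The remaining members by name were Tomm34, a cytosolic cochaperone, and Timmdc1, an assembly factor of respiratory complex I. Timmdc1 stood at 44.3, 68.8 and 60.3 CPM in MA-10 and at 49.4, 52.9 and 50.0 CPM in STARKO1, with MA-10 replicate 1 below and the other MA-10 libraries above STARKO1 (log2 fold change -0.19, adjusted p = 0.497, edgeR). Tomm34 differed as little, at -0.23 (adjusted p = 0.307, edgeR).

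The ratio of a pair of paralogs within a library does not depend on the scaling between libraries, but it does keep any trend of a library with transcript length. For 8 of 10 listed pairs both members were tested, and the log2 ratio of their counts was compared between the lines with a two-sided exact permutation test, which with 3 libraries against 3 cannot give a p under 0.1. In 5 pairs the ratios of the lines did not overlap (exact permutation p = 0.1, adjusted p = 0.16 over the 8 pairs), and no pair can pass the threshold in this design. Of single tested genes, 42.5% did not overlap between the lines. The share over other gene pairs was not computed, so the count of pairs has no background to be read against. Timm17a to Timm17b was -0.24, 0.04 and 0.18 in MA-10 and 0.59, 0.62 and 0.75 in STARKO1, a difference of 0.66, so STARKO1 held more Timm17a for its Timm17b in every library. The transcripts used for them have 7280 and 2381 bases, and with offsets for transcript length their log2 fold changes were -0.28 and -0.62, closer to each other than the -0.04 and -0.67 without them. Tomm40 to Tomm40l was 1.95, 2.25 and 1.91 against 2.42, 2.54 and 2.48, a difference of 0.44. In these 2 pairs MA-10 replicate 1 lay among or beyond the other MA-10 libraries.

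The other pairs set apart were Chchd2 to Chchd10, given above, Timm8a1 to Timm8b with a difference of 1.81, and Mtx1 to Mtx3 with one of -2.25. Mtx1 to Mtx3 was 1.97, 5.39 and 3.99 in MA-10 and 1.43, 1.71 and 1.47 in STARKO1, so replicate 1 came close above STARKO1 and the others lay far off. For Timm8a1 to Timm8b the MA-10 values were 1.11, -1.44 and -0.64 and those of STARKO1 1.61, 1.46 and 1.39, with replicate 1 again the nearest. Ratios overlapped for Grpel1 to Grpel2 (difference -0.07, exact permutation p = 0.8), Apoo to Apool (-0.23, exact permutation p = 0.3) and Mtch1 to Mtch2 (0.64, exact permutation p = 0.4). In MA-10 replicates 2 and 3, Grpel1 and Grpel2 were thus both high, and Apoo and Apool likewise.

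**Figure D4:**
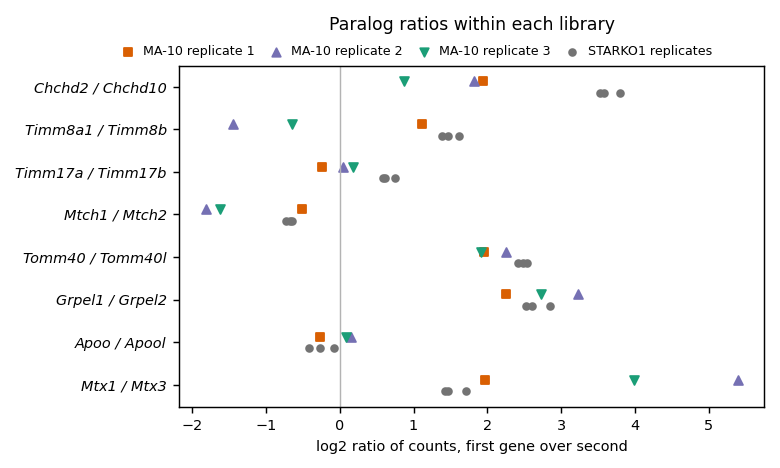
Each row is a pair of paralogs and each point the log2 ratio of the counts of the first gene to those of the second in 1 library. Squares and triangles are the MA-10 replicates and circles the STARKO1 replicates. The lines do not overlap for 5 pairs, and MA-10 replicate 1 lies among the other MA-10 libraries for Tomm40 to Tomm40l and farthest from STARKO1 for Timm17a to Timm17b.

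**Figure D5:**
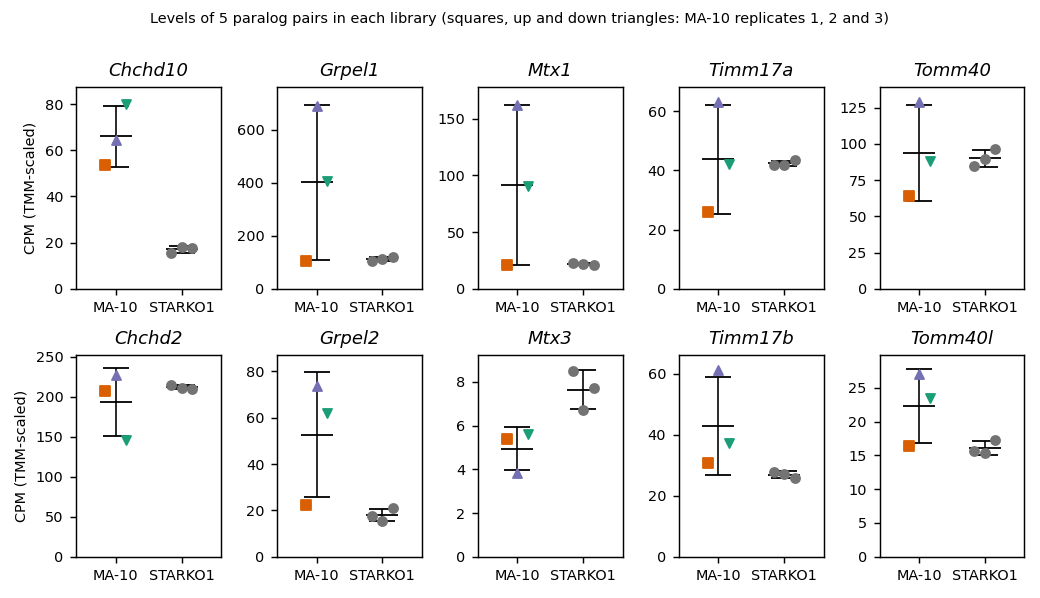
CPM scaled by TMM in each library for 5 pairs of paralogs, 1 pair per column, with the mean and SD of the 3 libraries of a line as a long dash and error bar. The MA-10 bars are wide and the STARKO1 bars narrow for most genes, Chchd10 shows the lines fully apart at 66.0 ± 13.1 and 17.1 ± 1.37 CPM, and Mtx3 lies higher in STARKO1 while Mtx1 lies higher in MA-10 replicates 2 and 3.

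Import genes that the symbol rule does not take were read from a list, of which 11 of 12 were in the table and tested. None passed the test, and their median log2 fold change was -0.19. At an unadjusted p under 0.05, 4 were lower and none higher (22.7% and 15% of all tested genes). Hspa9, the mitochondrial HSP70 that drives the motor, was among those with lower values in STARKO1 at -0.83 (adjusted p = 0.112, edgeR), and so was Dnajc19, the J-protein partner of Pam16, at -2.08 (adjusted p = 0.0819, edgeR). Without MA-10 replicate 1 the values were -0.99 for Hspa9 and -2.47 for Dnajc19, and with that library alone -0.14 and 0.27. The presequence protease subunits Pmpca and Pmpcb were at 0.13 and 0.33.

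The members shared features that the symbol rule did not use. Their transcripts were short, with a median of 1573 bases against 2539 for all genes of the table. The 23 members at or under that median had a median log2 fold change of -0.84 and the 23 above it one of -0.22, while all tested genes divided at the same length had medians of -0.41 and 0.02. With offsets that removed the trend with transcript length in each library the medians of the short and long members were -0.26 and -0.25. In that fit 1 member, Chchd10 at -1.42 (adjusted p = 0.0147, edgeR), was called lower and 1, Immt, higher, against 6.13% and 5.62% of all tested genes.

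Promoters of 41 members were found in RefSeq by symbol (GRCm38.p6, 250 bases before to 50 after a start), taking for each gene the window nearest to the start given in the table, which it did not match exactly for most members and which lay farthest away for Mtx1. The letters CCGGAAG were found on either strand in 18 of 41 (43.9%), against 20.8% of 8518 tested protein-coding genes and 8.86% of all 32851 promoter windows. The tested members with the letters had a median log2 fold change of -0.22 (n = 18) and those without one of -0.63 (n = 22). The letters of other sites searched on both strands were those of the NRF1 palindrome, found in 0 members (2.41% of tested protein-coding genes), and of the cAMP response element (TGACGTCA), also 0 (3.42%). Those of YY1 (AAGATGGC) were found in 3 members (7.32%, against 5.27% of tested protein-coding genes). The letters of the SF-1 site (CAAGGTCA) were found in 4 members (9.76%, against 1.02% of tested protein-coding genes). SF-1 is the orphan receptor known for driving steroidogenic genes in Leydig cells. Chchd6, Micos10, Mtch2 and Timm8b carried its letters, which do not overlap CCGGAAG in the runs shown. A match is a string of letters and not a measured site, and these shares describe the windows only.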

How the data were processed

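Total RNA of 3 MA-10 and 3 STARKO1 libraries was made into libraries with a stranded pico-input kit, per the labels. What the authors deposited are estimated counts for each gene and library, without normalization. STAR 2.6.1d, Partek and the mm10 build are named in the submitters' processing notes, whereas the counting program, its annotation and its strand setting are not given in the sources used here. For 24.0% of the genes a deposited value was not whole (tolerance 0.05), so reads had been divided between features, and 11 members were among them. These were Apoo, Chchd2, Grpel2, Immt, Pam16, Timm10b, Timm17a, Timm23, Timm8a1, Tomm20 and Tomm6. The study's methods name a Student test for its data in general and no test for the sequencing counts in particular.

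Estimated counts were rounded and fitted on the whole table with edgeR 4.0.16 in R 4.3.3 (filterByExpr, TMM, glmQLFit and glmQLFTest, Benjamini-Hochberg, threshold 0.05). SE is the log2 fold change over the square root of F. Alternatives were DESeq2 1.42.0, upper quartile scaling, library size alone, no filter or at least 10 counts in every library, the replicate number as a block, lowess offsets for transcript length, and leaving out libraries. The main edgeR fit, the fit with length offsets and DESeq2 were tried on simulated counts, in which no library stood apart. The other settings were not tried in this way. Paralog ratios used counts plus 0.5 (alternative 5) and exact permutation in scipy 1.17.1. CPM per kb used the length of 1 transcript per gene from GENCODE M21 (GRCm38), preferring those with a RefSeq record. Gene coordinates are 1-based in mm10. Promoters came from RefSeq.

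The members and lists were chosen with earlier results of these data known. Values in every library are given for members past the threshold, the member of each role with the highest mean CPM per kb, and both members of each tested paralog pair. Any other member so described was chosen after its values were seen. Library totals of 14114351 to 19530062 counts set the precision, and the common biological coefficient of variation was 0.291.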

Additional observations from a re-analysis of the deposited data

How the results depend on the processing

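Over all genes 1079 were called, against 3349 with DESeq2, 330 with library size alone, 695 with at least 10 counts in every library, 234 with the replicate block, 248 with the replicate block and length offsets, 5086 with MA-10 replicate 1 alone, and 89 to 7990 when 1 library was left out, the highest without MA-10 replicate 1 and the lowest without STARKO1 replicate 1. Of the members 0 were higher, against 1 with DESeq2, 1 with length offsets, 12 with MA-10 replicate 1 alone, and 0 to 6 when 1 library was left out. Of the members 1 was lower, against 13 with DESeq2, 0 with length offsets and the replicate block, 3 with MA-10 replicate 1 alone, and 0 to 29 when 1 library was left out (29 without MA-10 replicate 1, 0 without STARKO1 replicate 1). The shares of all tested genes called lower and higher shifted as well, from 4.74% and 4.30% in the main fit. They were 14.6% and 9.00% with DESeq2, and 31.7% and 34.0% without MA-10 replicate 1. The cause of these shifts was not tested. Of 345 log2 fold changes of the 23 named members under 15 alternatives, 290 kept direction and side of the threshold, 2 lost a call, 26 gained one and 27 turned sign. Those that turned were for Timm17a 0.14 with upper quartile scaling, 0.51 with library size alone, 0.02 with no filter, 0.05 with the replicate block, 0.70 with MA-10 replicate 1 alone and -0.22 to 0.32 with 1 library left out. For Tomm40 they were 0.12, 0.48, 0.01, 0.00, 0.50 and -0.18 to 0.24 in the same order, 0.18 with length offsets and 0.19 with length offsets and the replicate block. Timmdc1 was 0.31 with library size alone, 0.05 with length offsets, with or without the replicate block, and 0.20 with MA-10 replicate 1 alone. Tomm40l was 0.04 with library size alone. With MA-10 replicate 1 alone Apoo was 0.27, Apool 0.25, Grpel1 0.11, Mtx1 0.06 and Timm23 0.19. Chchd2 ran from -0.03 to 0.28 with 1 library left out. Of the 64 alternatives to paralog ratios, 1 turned sign, Grpel1 to Grpel2 at 0.17 without MA-10 replicate 2 (-0.32 to 0.17 over libraries left out).

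Deviations from the group means correlated at -0.0165, 0.0455 and 0.0201 between libraries of the same number, and at a mean of -0.0078 between others. No pairing by number was thus seen. With 3 libraries per line and MA-10 replicate 1 apart from the others, these values cannot exclude one. With the replicate block Chchd10 was at -1.93 (adjusted p = 0.0200, edgeR).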
